A study of Glycine max with 11 samples.

Results

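Among freshly harvested soybean seeds, 47 genes had their highest level at stage 9, the dry mature seed, at least 1.5 times that of every earlier stage. They were found in a table of read counts for 56044 genes. The genes were chosen by their CPM (a count scaled to the sum of its library, which is set to 1e6). A gene was taken when its CPM was at least 2 in both libraries of stage 9 and when the lower of these was at least 1.5 times the highest CPM among the 7 other libraries of freshly harvested seeds. This held for 52 genes, and 5 small heat shock protein genes were left out. The values of stage 9 against earlier fresh seeds therefore chose the genes and are given as a description, without a test. The libraries of dried seeds played no part in the choice. Of all genes, 17696 reached a CPM of at least 2 in both libraries of stage 9.

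RNA came from whole seeds of Glycine max cultivar BRS284 grown in the field. Seeds harvested at stage 7.2 and then dried at 30 °C and 40% relative humidity to a moisture content of 10% gave 2 libraries. Seeds frozen right after harvest were sequenced from stages 7.1, 7.3, 8.1, 8.2 and 8.3 with 1 library for each, and from stages 7.2 and 9 with 2 for each. Stage 7.1 lies late in seed filling, green colour is lost by stage 7.3, and stage 9 is the dry mature seed. Cultivar, farm and crop year were the same for all groups, and each stage drew on seeds of many plants. The libraries of dried seeds held 12881662 and 60626937 counts, and those of fresh seeds held 13392050 to 34971702 counts. A single count was worth 0.0165 to 0.0776 CPM. The seed lectin gene (Glyma.02G012600) had 9119 CPM at stage 7.1 and 97.1 to 429 CPM in the other libraries, and the gene of the 34 kDa maturing seed protein (Glyma.08G116300) had 33015 CPM and 309 to 1385 CPM. Stages with 1 library have no replicate check. In whole seeds, more RNA per cell and more cells of a kind cannot be told apart.

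A seed that dries must keep its proteins from unfolding and clumping. Small heat shock proteins bind partly unfolded proteins without using ATP, and larger chaperones of the HSP70, HSP90 and HSP101 families refold or disentangle them with ATP. Heat shock factors are the transcription factors that switch on these genes, in heat and, in several species, during the last phase of seed development.

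The 47 genes were not silent until stage 9. Together they took 0.433% and 0.555% of the counts in dried seeds of stage 7.2. In freshly harvested seeds they took 0.0432% at stage 7.1, 0.125% and 0.123% at stage 7.2, 0.12% at 7.3, 0.131% at 8.1, 0.204% at 8.2, 0.346% at 8.3, and 0.624% and 0.695% at stage 9. The share was thus nearly level between stages 7.2 and 8.1 and higher at each stage after that. Stage 8.3 held the highest level before stage 9 for 38 of the 47 genes (80.9%), against 11.2% of the 17696 genes detected at stage 9. At stage 8.3, 33 of the 47 were already at 1.5 times or more their highest level of stages 7.1 to 8.1, and 28 were at 2 times or more. Among the 17696 genes these shares were 3.88% and 1.51%. Most of the 47 genes were therefore at a higher level before stage 9 already, against a description of them as rising only there. The shares over the 17696 genes depend on the CPM scale. Stage 8.3 had more counts than stage 8.2 (22707980 against 19621133). Its DESeq2 size factor, a scaling by the typical gene, was smaller (0.925 against 0.982). CPM thus sets a typical gene lower at stage 8.3 than size factors would. With size factors these shares were not computed.

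**Figure D1:**
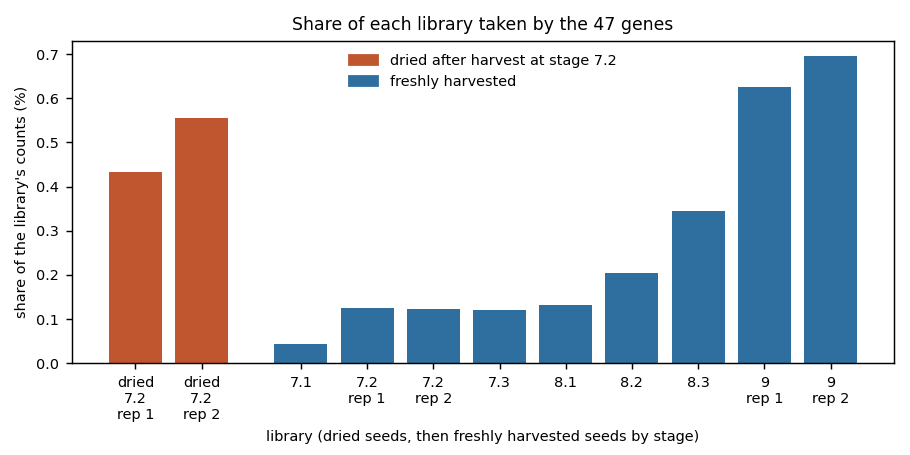
Bars give the share of each library's counts, in percent, that fell on the 47 genes, for the 2 libraries of dried seeds (left) and the 9 libraries of freshly harvested seeds by stage. The libraries of stage 9 stand highest, at 0.624% and 0.695%, and those of dried seeds of stage 7.2 stand at 0.433% and 0.555%, above fresh seeds of stage 7.2 at 0.125% and 0.123%.

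The step from one stage to the next was measured as the median log2 difference of CPM + 0.5 over the 47 genes. It was 0.46 between stages 7.1 and 7.2, -0.014 between 7.2 and 7.3, and 0.40 between 7.3 and 8.1. It was 1.02 between stages 8.1 and 8.2, 0.78 between 8.2 and 8.3, and 1.00 between 8.3 and 9. The last 3 steps were thus of similar size. Stage 9 chose the genes, and stages 8.1 to 8.3 were part of the ceiling of the rule. None of these steps is therefore free of the choice, and their sizes are a description. Over the 17696 genes detected at stage 9, the same 3 steps had medians of 0.11, -0.24 and 0.0027. These medians hold differences of scale between libraries, such as that between stages 8.2 and 8.3 given above. They are not read as a rise or fall of most genes, and the steps of the 47 genes carry the same shifts. From stage 8.3 to stage 9 the difference lay between 0.63 and 1.82 for single genes. Between the replicates of stage 9, the log2 difference of the 47 genes had a median size of 0.16. It was largest for Glyma.15G264600, with 4.99 and 12.7 CPM.

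Mean levels at stage 9 ranged from 2.11 to 1329 CPM, with 9 genes under 10 CPM and 20 genes at 100 CPM or more. The highest belonged to Glyma.02G205600, a gene without a name in the tables used here. It had 1483 and 894 CPM in dried seeds, 227 CPM at stage 7.1, 691 and 727 CPM at stage 7.2, 567 to 861 CPM from stage 7.3 to 8.3, and 1346 and 1312 CPM at stage 9. It was an abundant transcript throughout and the member closest to the threshold of the rule, at 1.52 times its highest earlier level. Glyma.07G200300 followed with 479.9 and 614 CPM at stage 9, Glyma.08G068800 with 374 and 549.8 CPM, Glyma.08G069000 with 335 and 464 CPM, and Glyma.14G152700 with 393 and 389 CPM.

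Names could be given to 14 of the 47 genes, from the names printed beside gene identifiers in the study's tables. For 12 of the 14 the name stood in a list of genes that differ between stage 9 and dried seeds, so named genes are not a fair sample of the 47 where dried seeds are concerned. The other 33 are given by identifier only. By words in their names, 10 of the 14 were heat shock proteins or chaperones, and 1 was a heat shock factor and also the single transcription factor. Of the 12 lists of functions searched, 9 held none of the 14. These 9 lists took in late embryogenesis proteins, redox enzymes, sugar synthesis, proteolysis, translation, RNA processing, mitochondrial energy supply, histones and hormone genes. The 33 genes without a name could not fall on any list, so their functions were not examined. In all, 3088 of the 56044 genes had a name.

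The gene of the disaggregase HSP101 (Glyma.17G077500, named heat shock protein 101) had the highest ratio of the rule. It had 0 counts at stage 7.1, 0 and 1 counts at stage 7.2, 0 counts at stage 7.3, 1 count at stage 8.1, 8 at stage 8.2, 35 at stage 8.3, and 146 and 166 counts at stage 9. In dried seeds of stage 7.2 it had 3 and 18 counts. These counts correspond to 5.52 and 7.87 CPM at stage 9, 0.233 and 0.297 CPM in dried seeds and 1.54 CPM at stage 8.3, so that its transcript was rare in every library and most abundant at stage 9. HSP101 of Arabidopsis pulls proteins out of aggregates and is needed for survival of severe heat.

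The heat shock factor among the 47 genes was Glyma.03G157300, named HSFA6b, which binds the promoters of heat shock genes. Its level was 0.290 CPM at stage 7.1, 3.86 and 3.55 CPM at stage 7.2, 5.23 CPM at 7.3, 7.54 CPM at 8.1, 9.89 CPM at 8.2, 10.3 CPM at 8.3, and 22.5 and 22.0 CPM at stage 9. It was higher at each stage than at the one before, nearly level between 8.2 and 8.3 and 2.13 times higher after that. In dried seeds it had 6.60 and 3.61 CPM, the second of which lies within the values of fresh seeds of stage 7.2. Its primer pair for RT-qPCR is shown because it is a designed sequence for a member of the set. Both primers are in lower case and run 5′ to 3′. The identifier places the gene on chromosome 3.
HSFA6b forward primer: gagtgtcagagttggaagtg
HSFA6b reverse primer: ccagcctctcttgtgattg

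Of the heat shock proteins, 8 were small. The class I genes Glyma.13G176000 (named 17.6 kDa) and Glyma.13G176200 (17.5 kDa) lie 2 identifiers apart on chromosome 13. Glyma.13G176200 stayed between 0.440 and 0.747 CPM up to stage 7.3, and had 5.23 CPM at stage 8.1, 17.7 CPM at 8.2, 87.5 CPM at 8.3, and 149.5 and 184 CPM at stage 9. Its neighbour had 4.49 to 5.76 CPM up to stage 7.3, 13.1 CPM at stage 8.1, 48.0 CPM at 8.2, 157 CPM at 8.3, and 296 and 308 CPM at stage 9. The pair thus shared a steep course from stage 8.1 on. Per the study's methods mapped reads are those with an unambiguous place in the genome, so the levels of genes that resemble each other are uncertain, since shared reads may be missing from their counts.

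The class II genes were Glyma.04G054400 and Glyma.06G054700. The first had 0.498 CPM at stage 7.1, 2.34 and 1.51 CPM at stage 7.2, 3.81 CPM at 7.3, 4.26 CPM at 8.1, 30.6 CPM at 8.2, 76.1 CPM at 8.3, and 167 and 199 CPM at stage 9. The second started from a higher floor, 5.23 to 11.6 CPM up to stage 8.1, and had 31.1 CPM at 8.2, 57.6 CPM at 8.3, and 109 and 122 CPM at stage 9. The plastid small heat shock protein gene Glyma.04G229800 (named heat shock protein 21) had 0.124 CPM at stage 7.1, 13.2 CPM at stage 8.1, 15.9 CPM at 8.2, 65.7 CPM at 8.3, and 122 and 149 CPM at stage 9. Unlike in the cytosolic genes, the values at 8.1 and 8.2 were close. Glyma.16G206200, named Hsp22.5, was rare, with at most 3 counts in every library up to stage 8.1, 28 counts each at stages 8.2 and 8.3, and 139 and 83 counts at stage 9.

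HSP18.1B (Glyma.01G106800) had 17.8 CPM at stage 8.1, 58.6 CPM at 8.2, 57.2 CPM at 8.3, and 125 and 132 CPM at stage 9. Glyma.08G068800, named 17.3 kDa class I heat shock protein, had 16.6 CPM at stage 8.1, 116 CPM at 8.2, 229 CPM at 8.3, and 374 and 549.8 CPM at stage 9. For both, the largest part of the way up from stage 7.3 was covered before stage 9 on a log scale.

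A pair of members are helpers of folding. Glyma.03G146100 is named as an activator of the ATPase of the 90 kDa heat shock protein, a co-chaperone that speeds the work of HSP90. It had 3.76 to 4.55 CPM up to stage 8.1, 16.9 CPM at 8.2, 22.2 CPM at 8.3, and 43.2 and 41.0 CPM at stage 9. Glyma.08G106700 is named FK506-binding protein, of a family that turns proline bonds in folding proteins. It had 0.189 to 0.971 CPM up to stage 8.1, 3.87 CPM at 8.2, 5.11 CPM at 8.3, and 10.9 and 12.5 CPM at stage 9. Both were low until stage 8.1 and higher from 8.2 on.

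The remaining named members were Glyma.16G042000, of the short chain dehydrogenases, a large family of oxidoreductases, and Glyma.13G301900, of a wound-responsive family. The dehydrogenase gene had 5.39 CPM at stage 7.1, 1.46 and 1.82 CPM at stage 7.2, 1.07 CPM at 7.3, 3.29 CPM at 8.1, 14.3 CPM at 8.2, 18.1 CPM at 8.3, and 29.8 and 33.5 CPM at stage 9. The wound-responsive gene had 85 counts at stage 7.1, 48 and 3 counts at stage 7.2, 1 count at 7.3, 0 counts at 8.1, 3 at 8.2, 99 at 8.3, and 191 and 150 counts at stage 9. It was nearly absent between stages 7.3 and 8.2 and present on either side, and its libraries of stage 7.2 differed by far more than its libraries of stage 9.

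Of the named heat shock and chaperone genes, 69 in all without heat shock factors, 54 had a CPM of at least 2 in both libraries of stage 9. Of these, 15 met the rule, the 10 members and the 5 genes left out. Another 11 were highest at stage 9 but by less than 1.5 times, and 28 had a higher level in at least 1 earlier fresh library than in the lower library of stage 9. The names of 60 of the 69 came from the list drawn up on stage 9 and dried seeds, so this is not an even sample of the chaperones of soybean.

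**Figure D2:**
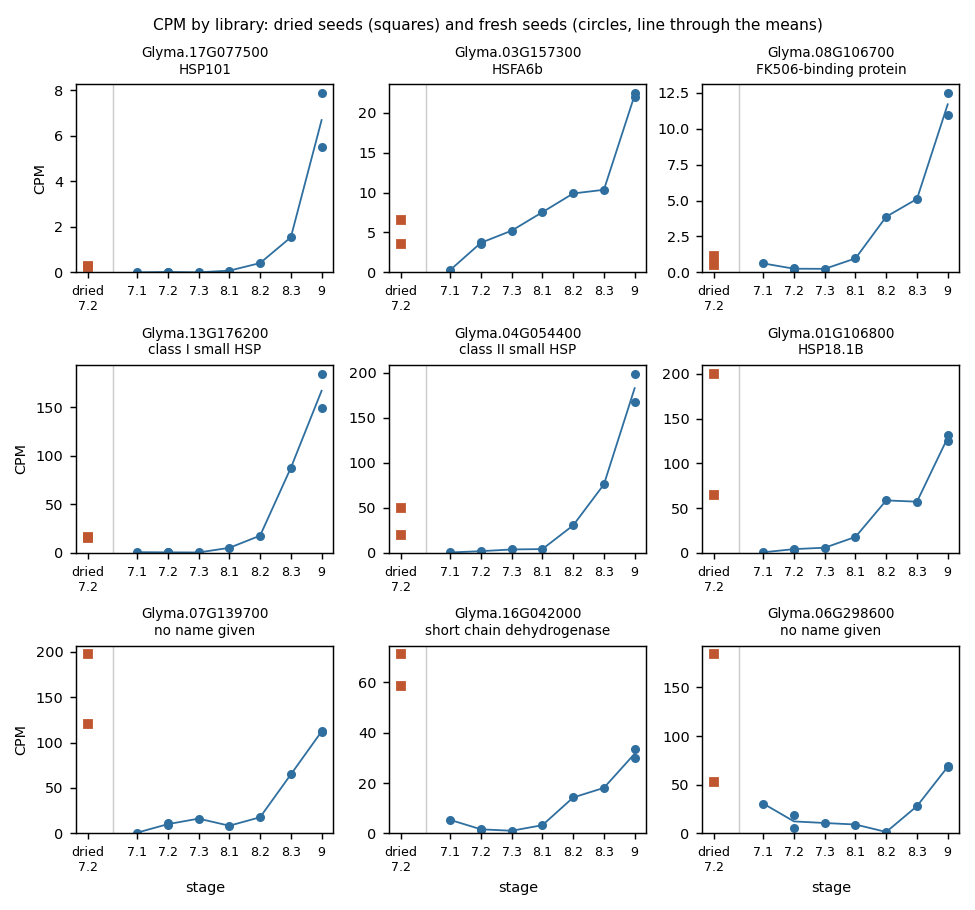
CPM of 9 of the genes in each library, for dried seeds of stage 7.2 (squares, left) and freshly harvested seeds by stage (circles, with a line through the means). HSP101, HSFA6b, the FK506-binding protein and the class I small heat shock protein Glyma.13G176200 have dried seeds far below stage 9, whereas Glyma.07G139700 and Glyma.16G042000 have dried seeds above it, and Glyma.06G298600 is lowest at stage 8.2.

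Several members are neighbours. By their numbers, 13 of the 47 lie within 5 identifiers of another member, in 5 groups. Chromosome 7, which holds 8 members, has a pair of such groups. Glyma.07G139700, Glyma.07G139800 and Glyma.07G139900 are consecutive. Their levels were 0.871, 0.871 and 0.249 CPM at stage 7.1, 17.8, 14.6 and 4.64 CPM at stage 8.2, and 64.9, 47.4 and 12.5 CPM at stage 8.3. At stage 9 they had 111 and 113 CPM, 77.9 and 79.1 CPM, and 22.8 and 25.7 CPM. The 3 genes kept the same order in every library but that of stage 7.1, where the first 2 were equal. Each was higher at stage 7.3 than at 7.2 and 8.1. They have no name in the tables used here.

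The other group on chromosome 7 holds Glyma.07G200000, Glyma.07G200300 and Glyma.07G200500, and one of the small heat shock protein genes left out (Glyma.07G200700) lies 2 identifiers beyond. Glyma.07G200300 had 3.03 CPM at stage 7.1 and 73.0 to 95.5 CPM from stage 7.2 to 8.2. It had 294 CPM at stage 8.3, and 479.9 and 614 CPM at stage 9. Glyma.07G200300 thus stood on a plateau up to stage 8.2. Glyma.07G200500 had a level stretch as well, but far lower and shorter. It had 0.166 CPM at stage 7.1, 1.81 to 2.54 CPM from stage 7.2 to 8.1, and 9.17 CPM at 8.2. Glyma.07G200000 had 0.456 CPM at stage 7.1, 2.08 to 5.30 CPM from stage 7.2 to 8.1, and 36.2 CPM at 8.2. At stage 9 Glyma.07G200000 had 171 and 203 CPM, and Glyma.07G200500 had 36.1 and 37.9 CPM.

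On chromosome 8, Glyma.08G068700 and Glyma.08G069000 flank Glyma.08G068800. Glyma.08G068700 had 0.377 to 0.772 CPM up to stage 7.3, 3.81 CPM at stage 8.1, 30.4 CPM at 8.2, 40.8 CPM at 8.3, and 83.2 and 134 CPM at stage 9. Glyma.08G069000 had 4.44 CPM at stage 7.1, 24.1 CPM at 8.1, 170.2 CPM at 8.3, and 335 and 464 CPM at stage 9. In all 3 the second library of stage 9 was the higher one. On chromosome 18, Glyma.18G284900 had 12.7 CPM at stage 8.1, 42.8 CPM at 8.2, 56.6 CPM at 8.3, and 146 and 133 CPM at stage 9. Glyma.18G285100, 2 identifiers further, had 10.7 CPM at stage 8.1, 58.0 CPM at 8.2, 90.1 CPM at 8.3, and 217 and 204 CPM at stage 9. Whether these neighbours resemble each other in sequence was not tested.

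Among the further members without a name, Glyma.02G096400, with one of the highest ratios of the rule, had 6.68 and 8.12 CPM in dried seeds. In fresh seeds it had 0.166 to 0.523 CPM up to stage 8.1, 3.16 CPM at 8.2, 3.26 CPM at 8.3, and 9.45 and 8.39 CPM at stage 9. It was thus raised in a pair of steps with a level stretch between them. Glyma.15G013300 was never low, with 214 and 337 CPM in dried seeds, 19.5 to 31.0 CPM up to stage 7.3, 49.3 CPM at 8.1, 50.15 CPM at 8.2, 90.8 CPM at 8.3, and 229 and 211 CPM at stage 9. Glyma.06G157800 had 1.66 to 3.03 CPM up to stage 7.3, 15.2 CPM at 8.1, 69.9 CPM at 8.2, 124 CPM at 8.3, and 263 and 279 CPM at stage 9. Its course was as steep as that of the named small heat shock protein genes. Glyma.06G202200 had 4.84 to 8.96 CPM up to stage 7.3, 10.8 CPM at 8.1, 56.6 CPM at 8.2, 69.4 CPM at 8.3, and 118 and 143 CPM at stage 9.

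Other members were well expressed from stage 7.2 on. Glyma.07G043600 had 6.30 CPM at stage 7.1, 117 and 109 CPM at stage 7.2, 108 CPM at 7.3, 70.4 CPM at 8.1, 75.2 CPM at 8.2, 130.1 CPM at 8.3, and 234 and 281 CPM at stage 9. Glyma.14G152700 had 19.4 CPM at stage 7.1, 108 and 102 CPM at stage 7.2, 181 CPM at 7.3, 243 CPM at 8.1, 248.5 CPM at 8.2, 237 CPM at 8.3, and 393 and 389 CPM at stage 9. The first dipped at stages 8.1 and 8.2, and the second was level over stages 8.1 to 8.3. Glyma.10G051100 had 47.9 and 43.9 CPM at stage 7.2, 19.8 CPM at 8.1, 48.1 CPM at 8.3, and 88.1 and 82.4 CPM at stage 9.

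A minority of the 47 had another course. In 4 genes the highest level before stage 9 was at stage 7.1 and in 1 gene it was at stage 7.3, and these 5 were no higher at stages 8.2 and 8.3 than at their earlier maximum. Glyma.14G156300, second by the ratio of the rule, had 3.07 CPM at stage 7.1, 1.00 and 1.07 CPM at stage 7.2, 1.56 CPM at 7.3, 2.46 CPM at 8.1, 2.34 CPM at 8.2, 2.77 CPM at 8.3, and 10.4 and 9.39 CPM at stage 9. Among fresh seeds it came nearest to a gene that is raised at stage 9 only. In dried seeds of stage 7.2, however, it had 4.19 and 6.14 CPM and was called higher than in fresh seeds of that stage. Glyma.06G298600 had 30.7 CPM at stage 7.1, 19.3 and 5.47 CPM at stage 7.2, 10.7 CPM at 7.3, 9.18 CPM at 8.1, 1.53 CPM at 8.2, 28.1 CPM at 8.3, and 68.0 and 68.8 CPM at stage 9. Glyma.06G297600, 10 identifiers away, had its lowest level, 1.78 CPM, at stage 8.2 as well, and 28.1 and 28.5 CPM at stage 9. For 4 of the 47 genes (8.51%) stage 8.2 was the lowest of all fresh libraries, against 5.38% of the 17696 genes. Glyma.12G084900 and Glyma.13G247000 were the others, with 4.13 and 0.102 CPM there.

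The drying of stage 7.2 seeds was the comparison that had not entered the choice of genes, apart from the ceiling the rule set on the fresh libraries of stage 7.2. It asks how the transcripts that stand out in the mature dry seed differ between an immature seed after enforced drying and the same stage fresh. Dried seeds had also spent the drying time off the plant at 30 °C, while fresh seeds were frozen after harvest, so loss of water, time and temperature cannot be told apart. Dried seeds were compared with fresh seeds of stage 7.2 on 2 libraries a side, with edgeR's quasi-likelihood test over all genes. A gene was called at an adjusted p under 0.05 and at least a 2-fold change. Of the 47 genes, 46 passed the filter on low counts and 44 rose on drying, against 15% of all 30132 genes tested and 19.3% of those detected at stage 9. None of the 47 was called lower, against 17.9% of all genes. The number lower was 0 also at an unadjusted p under 0.05 and by DESeq2. The median log2 fold change of the 46 was 3.93, against -0.046 over all genes tested. In 42 members no library of the 4 had fewer than 10 counts, and 41 of these were called higher. In 45 of the 47 genes both dried libraries lay above both fresh ones, which was the case for 23.5% of the genes detected at stage 9.

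**Figure D3:**
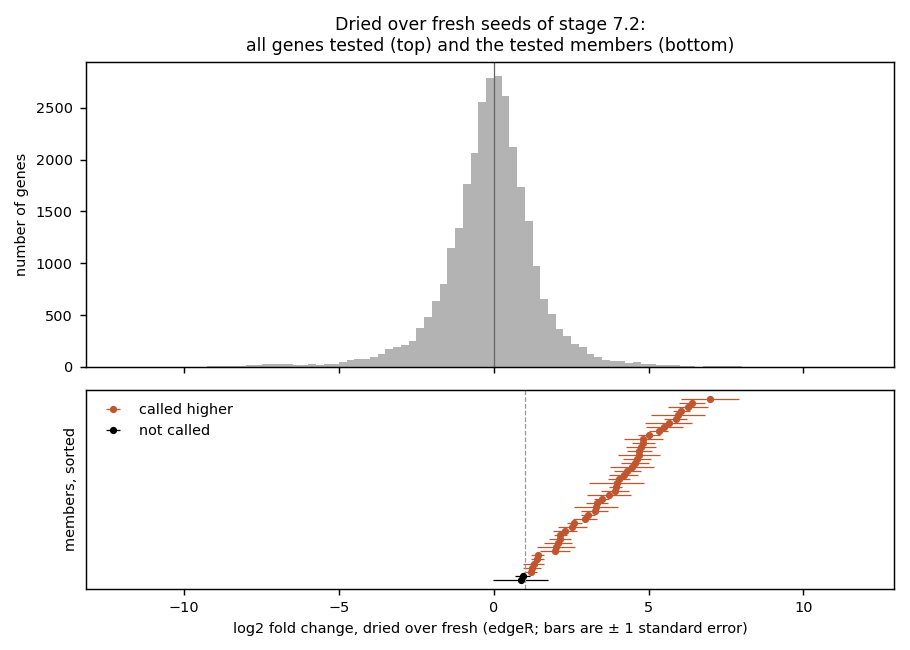
The upper panel is a histogram of the log2 fold change of dried over fresh seeds of stage 7.2 for the 30132 genes tested, and the lower panel gives the 46 tested members in order, with bars of 1 standard error on each side. All members lie to the right of 0, with a median of 3.93, and the 2 drawn in black were not called.

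The changes were large. The share of all genes tested with an increase of 8-fold or more was not computed. Such an increase was fitted for 30 of the 44, among them Hsp22.5 with 3 counts in all in fresh seeds. That of Glyma.08G068700 was the largest, with 19.5 and 71.9 CPM in dried seeds and 0.772 and 0.377 CPM in fresh seeds (log2 fold change 6.99, standard error 0.937, adjusted p = 0.00452 from edgeR). Glyma.06G157800 had 128 and 169 CPM in dried seeds and 3.03 and 2.26 CPM in fresh seeds (log2 fold change 6.40, standard error 0.413, adjusted p = 0.00202). In both the lower dried library was far above the higher fresh one. Glyma.07G200000 had 69.1 and 156 CPM in dried seeds and 2.46 and 2.08 CPM in fresh seeds (6.27, standard error 0.632, adjusted p = 0.00267). Glyma.18G285100 had 207 and 157 CPM in dried seeds and 4.58 and 3.30 CPM in fresh seeds (6.06, standard error 0.273, adjusted p = 0.00202). Glyma.08G068800 had 42.1 and 130.1 CPM in dried seeds and 3.35 and 1.13 CPM in fresh seeds (5.95, standard error 0.885, adjusted p = 0.00576). For these genes too the lower dried library lay far above the higher fresh one, although the dried libraries of the genes on chromosomes 7 and 8 differed by 2-fold or more. The short chain dehydrogenase gene Glyma.16G042000 had 58.5 and 71.1 CPM in dried seeds and 1.46 and 1.82 CPM in fresh seeds, a log2 fold change of 5.87.

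All 9 of the tested heat shock protein and chaperone members rose on drying. Glyma.13G176200 had 15.4 and 16.2 CPM in dried seeds and 0.629 and 0.535 CPM in fresh seeds (log2 fold change 5.32, standard error 0.302, adjusted p = 0.00202 from edgeR). HSP18.1B had 65.1 and 199.9 CPM in dried seeds and 4.66 and 3.77 CPM in fresh seeds (5.64, standard error 0.749, adjusted p = 0.00444). The co-chaperone gene Glyma.03G146100 changed less, with 14.1 and 12.2 CPM in dried seeds and 4.55 and 4.12 CPM in fresh seeds (2.14, standard error 0.203, adjusted p = 0.00252). In all 3 the dried and fresh libraries were well apart. Hsp22.5 had 15 and 98 counts in dried seeds and 2 and 1 counts in fresh seeds, too few in fresh seeds for a useful fold. The other named heat shock and chaperone genes include the 5 small heat shock protein genes that met the rule and were left out. Of these other genes, 52 were tested, 23 were higher in dried seeds and 7 were lower, with a median log2 fold change of 0.83. Over all genes tested 15% were higher and 17.9% lower. Most of the names on this list, 60 of 69, come from the table of stage 9 against dried seeds, which uses the same dried libraries, so these counts are not independent of drying.

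HSFA6b and the wound-responsive gene were the members tested and not called. HSFA6b had 6.60 and 3.61 CPM in dried seeds and 3.86 and 3.55 CPM in fresh seeds, a difference of 0.93 on the log2 scale (adjusted p = 0.0263 from edgeR, standard error 0.239), short of the 2-fold threshold. Without the second library of dried seeds it was 1.15 (adjusted p = 0.000712) and would have been called, while over all alternatives its adjusted p ran from 0.000712 to 0.201. Glyma.13G301900 had 18 and 40 counts in dried seeds and 48 and 3 counts in fresh seeds, and its log2 fold change of 0.87 had a standard error of 0.888 (adjusted p = 0.458). Without the first fresh library it was 3.73 (adjusted p = 0.0143, within a range of 0.0143 to 0.958 over all alternatives), so that this library decided the result. The smallest calls were those of Glyma.10G051100 (1.19), Glyma.02G205600 (1.24), Glyma.01G221800 (1.28), Glyma.12G084900 and Glyma.06G178000 (1.41 each). Without either fresh library in turn 38 genes were called, and all calls lost were at log2 fold changes of 2.08 or less. Calls were lost without either fresh library for Glyma.18G231500, Glyma.07G043600, Glyma.10G051100, Glyma.02G205600 and Glyma.01G221800, without the first for Glyma.12G084900 and without the second for Glyma.06G178000. Without the first dried library the call of Glyma.10G051100 was lost, and without the second those of Glyma.18G231500 and Glyma.01G221800. The FK506-binding protein gene was among these, with 1.16 and 0.528 CPM in dried seeds and 0.315 and 0.189 CPM in fresh seeds (2.08, adjusted p = 0.0157 from edgeR, and 0.0609 and 0.104 without the first and without the second fresh library, in a range of 0.00159 to 0.104 over all alternatives).

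The libraries of dried seeds differed more than other replicates, and on CPM the median difference of these genes was not that of all detected genes. On the scale of log2(CPM + 0.5), the second dried library exceeded the first by a median of 0.48 over the 47 genes. Over the 17696 genes detected at stage 9 the median was -0.41. The DESeq2 size factors over all 11 libraries were 0.507 and 1.75, for 12881662 and 60626937 counts. CPM thus sets a typical gene lower in the second dried library than size factors would. The median of -0.41 holds this difference of scale and is not read as a direction of change. On the CPM scale the second dried library was more than 2-fold higher for 12 of the 47, and the first library was more than 2-fold higher for 0. Over the 17696 genes these numbers were 630 and 1587, which hold the same difference of scale. Between the replicates of fresh seeds the median differences of the 47 genes were 0.12 at stage 9 and -0.11 at stage 7.2. The genes with the widest gap in dried seeds were Glyma.08G068700 (19.5 and 71.9 CPM), Glyma.06G298600 (53.2 and 184 CPM), Glyma.06G297600 (26.2 and 86.7 CPM) and Glyma.07G200300 (291 and 941 CPM). The first dried library was also the shallowest of all and the second the deepest. The part of depth in this gap was not tested.

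The level reached in dried seeds was set beside that of stage 9, as a description, since the libraries of stage 9 chose the genes. In 26 of the 47 genes (55.3%) both libraries of stage 9 lay above both dried libraries, against 50.4% of the genes detected at stage 9. In 5 genes (10.6%) both dried libraries lay above stage 9, against 13.3%, and in 16 the libraries overlapped. Without the first dried library dried seeds lay above stage 9 in 14 genes, and without the second in 8. On CPM these shares were close to those of all detected genes. A mean in dried seeds under 0.5 times that of stage 9 was more frequent, with 18 of the 47 genes (38.3%) against 11.9%. In 14 genes (29.8%) the mean in dried seeds was at least that of stage 9, against 29%. All these shares are on CPM, which sets a typical gene lower in the second dried library than size factors would. With size factors over all 11 libraries fewer members had stage 9 above and more had dried seeds above. The shares over all detected genes were not computed on that scale.

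**Figure D4:**
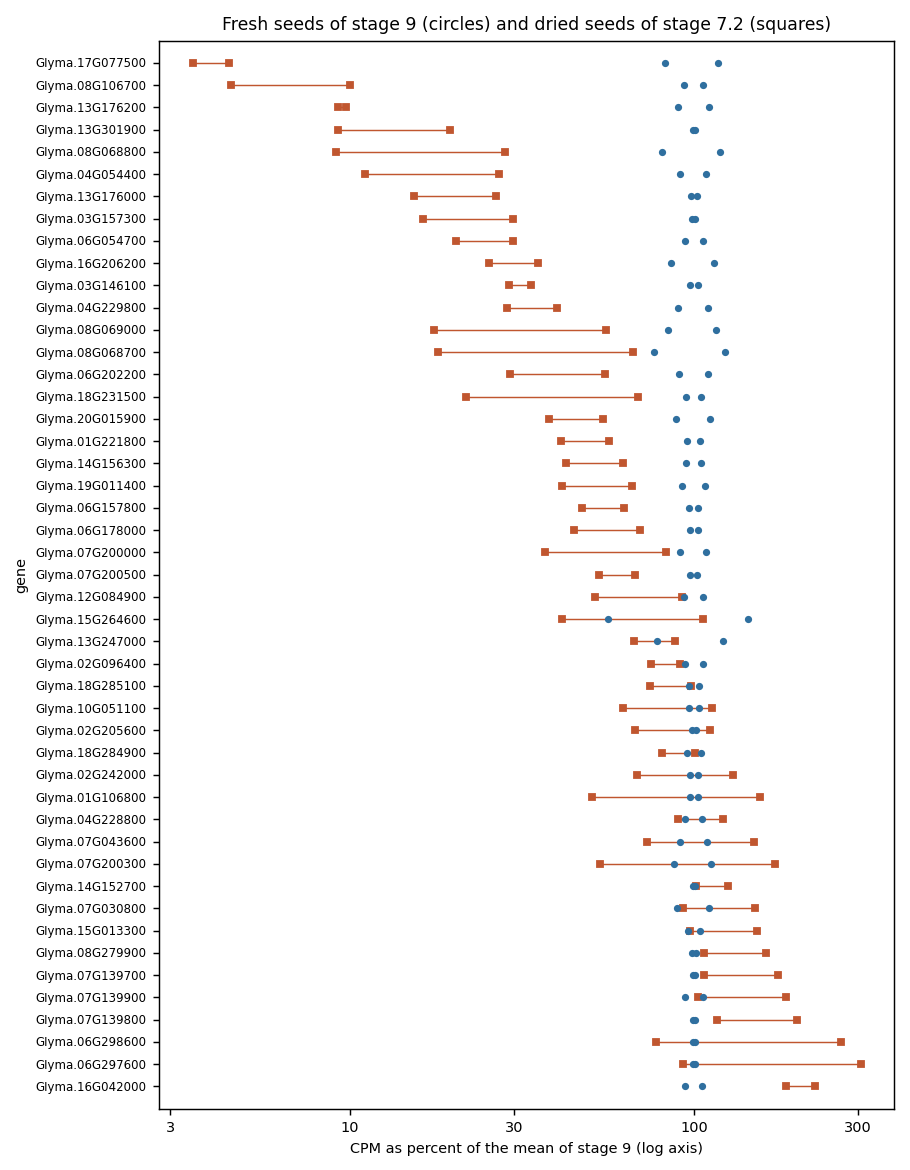
CPM of each of the 47 genes in the 2 libraries of fresh seeds of stage 9 (circles) and the 2 libraries of dried seeds of stage 7.2 (squares, joined by a line), as percent of the mean of stage 9, on a log axis. Genes run from HSP101 at the top, where dried seeds reached 3.96%, to Glyma.16G042000 at the bottom, where they reached 205%.

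Dried seeds stayed lowest, relative to stage 9, for HSP101, at 3.96% of its mean at stage 9, the FK506-binding protein gene at 7.24%, Glyma.13G176200 at 9.45%, the wound-responsive gene at 14.4% and Glyma.08G068800 at 18.6%. Glyma.04G054400 followed, with 167 and 199 CPM at stage 9 and 20.2 and 49.4 CPM in dried seeds, then Glyma.13G176000 at 20.9%, HSFA6b at 23.0% and Glyma.06G054700 at 25.1%. These 9 all have names, and 8 of the names come from the list of genes that differ between stage 9 and dried seeds. Since those names were drawn from that very contrast, that this end of the order holds named genes is no result. Glyma.13G176200 had 149.5 and 184 CPM at stage 9, and 15.4 and 16.2 CPM in dried seeds. The gene thus rose strongly on drying and still was far from its level in the mature seed. HSP18.1B, whose name comes from another table, had 125 and 132 CPM at stage 9, within its 65.1 and 199.9 CPM in dried seeds.

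At the other end, Glyma.16G042000 had 29.8 and 33.5 CPM at stage 9, against 58.5 and 71.1 CPM in dried seeds. Glyma.07G139700 had 111 and 113 CPM at stage 9 and 119.9 and 197 CPM in dried seeds. Glyma.07G139800 had 77.9 and 79.1 CPM at stage 9 and 91.9 and 157 CPM in dried seeds. In the dehydrogenase gene the gap was wide, and in the pair on chromosome 7 the first dried library was close to stage 9. Glyma.14G152700 had 393 and 389 CPM at stage 9, and 490.0 and 396 CPM in dried seeds. Glyma.08G279900, the rarest member, had 2.08 and 2.13 CPM at stage 9, and 2.25 and 3.41 CPM in dried seeds. These are the 5 genes with dried seeds above stage 9. Glyma.16G042000 was the single one of them in which the margin was wider than the gap between the dried libraries. In 23 of the 47 genes both dried libraries lay above all 7 fresh libraries before stage 9, which held for 4.03% of the detected genes. The rule had set a ceiling on those 7 libraries.

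At the edge of the rule, the members just inside were Glyma.02G205600 at 1.52 times its highest earlier level, Glyma.15G264600 at 1.53 and Glyma.13G247000 at 1.56. Just outside lay Glyma.05G221800 (82.5 CPM in the lower library of stage 9 and 55.6 CPM at its highest before) at 1.48 times, Glyma.13G149700 (33.2 and 22.5 CPM) at 1.48 and Glyma.11G246600 (40.3 and 27.3 CPM) at 1.48.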

How the data were processed

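The authors deposited whole-number counts, 1 transcript per gene and not normalized, made from trimmed single-end reads that they aligned to the soybean reference of Williams 82 using Bowtie2. The counting program is not given in the sources used here. One row of the table named no gene, had 0 counts and was dropped. Columns were matched to samples by their labels. The gene identifiers had no match in the RefSeq table used, so names came from the study's supplementary tables, and no coordinates are given. Gene order was read from the identifier numbers. The labels call the paired libraries replicas. p-values measure only the spread between these libraries.

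The members and the lists of functions, found by words in gene names, were chosen with earlier results of these data known. Levels are CPM. Dried and fresh seeds of stage 7.2 were compared on their own 4 libraries with R 4.3.3, edgeR 4.0.16 and limma 3.58.1 (TMM, filterByExpr, two-sided quasi-likelihood F test, Benjamini-Hochberg adjustment over all genes, threshold of 0.05 and a 2-fold change). The standard error is the log2 fold change divided by the square root of F. The script was tested on simulated data. Genes named were the 10 members with the highest ratio, the 5 with the highest level, the members of the heat shock, chaperone and transcription factor lists, the 5 largest rises on drying and the 3 genes on each side of the threshold. The other members were named after their values were seen. Alternatives used DESeq2 1.42.0, other normalizations, filters and thresholds, a replicate block, a fit of all 11 libraries, and each replicate left out. Tables and figures were made with Python 3.11.15, pandas 2.3.3 and matplotlib 3.10.9.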

Additional observations from a re-analysis of the deposited data

How the results depend on the processing

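The number of members called higher in dried seeds stayed between 35 and 45 under every alternative run, and 0 were called lower in each. It was 45 with DESeq2, without a low-count filter and in a fit of all 11 libraries, 44 with the replicate block, 40 with at least 10 counts in every library, 35 at an adjusted p under 0.01, and 38 to 44 with a replicate left out. No fold change of a member turned its direction. Over all genes 4507 were called higher and 5387 lower, against 2926 and 2994 with at least 10 counts in every library, 2563 and 2301 at an adjusted p under 0.01, and 2263 and 2594 without the first and 2395 and 2764 without the second fresh library. The replicate numbers of dried and fresh seeds were not stated to mark a shared batch, and deviations of libraries with the same number had a correlation of 0.051 across genes. With the block, all 46 tested members kept their side of the threshold.

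The choice of genes depended more on its settings. The rule took 57 genes with DESeq2's size factors or TMM, which included all 47, and 15 with a ratio of at least 2. It took 78 to 84 with a replicate of stage 9 left out, and 150, the most it allows, when stage 8.3 was left out, of which 42 were among the 47. The number of members with dried seeds above stage 9 was 8 with size factors over all 11 libraries, where those with stage 9 above numbered 20, and 6 to 14 with a replicate left out. The median step from stage 8.3 to stage 9 stayed between 0.89 and 1.09. With size factors or TMM, a setting added after seeing the data, 42 genes had stage 8.3 as the highest before stage 9. Shares over all detected genes, apart from those of the edgeR test, were computed on CPM only. Levels of single libraries, and of genes with few counts, limit these values.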
